A study of Mus musculus with 2 samples.

Results

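The miR-23, miR-27 and miR-24 genes lie in 2 genomic clusters of 3 hairpins each, Mir23a, Mir27a and Mir24-2 at the Mir23a locus and Mir23b, Mir27b and Mir24-1 at the Mir23b locus. They were chosen by name. Of the 6 genes, 5 have a row among the 1973 miRNA gene rows of the deposited tables, and Mir24-1 has none. The tissue was the facial prominence, the set of tissue buds that forms the face and jaws, of B6NCrl mouse embryos at 14.5 days of development. No treatment or altered allele is named in the labels. There were 2 biological replicates, 1 small RNA library of each, and no other group. The labels call each sample the face of a single pup and also a pool of both sexes, so whether a replicate is 1 embryo is not settled. The replicates were collected on different days, and day and replicate cannot be told apart.

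Each cluster is transcribed as 1 primary RNA, from which the hairpins are excised and cut to mature miRNAs of about the same length. The 2 clusters are vertebrate paralogues, each carrying a member of the same 3 miRNA families. A mature miRNA binds messenger RNAs mainly through its seed, bases 2 to 8 from the 5′ end. The clusters are best known from endothelial cells and blood vessel growth. miR-27 also restrains the muscle progenitor factor Pax3 and fat cell formation, and the Mir23a cluster is known to hold back bone-forming cells.

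The sequences below are shown because they fix which reads can be assigned to which locus. The 3p arms, the side of each hairpin that carries the well-known mature miRNAs, are printed 5′ to 3′ with the seed in capitals, from RefSeq on GRCm38.p6.
miR-23a-3p: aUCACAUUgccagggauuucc
miR-27a-3p: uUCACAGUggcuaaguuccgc
miR-27b-3p: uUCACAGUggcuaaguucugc
miR-24-3p: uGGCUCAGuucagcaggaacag
The seeds of miR-23a-3p and miR-27a-3p differ in 1 base of the 7, while the miR-24-3p seed differs from both at all 7. miR-27a-3p and miR-27b-3p have the same seed and are identical at 20 of 21 bases, the difference being C19U, counted from the 5′ end of miR-27a-3p. The identical miR-24-3p is cut from both Mir24-1 and Mir24-2.

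The hairpins of Mir23a and Mir23b are shown with their longest shared stretch, 20 bases, in capitals.
Mir23a: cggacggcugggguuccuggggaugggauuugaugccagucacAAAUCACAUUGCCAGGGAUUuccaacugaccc
Mir23b: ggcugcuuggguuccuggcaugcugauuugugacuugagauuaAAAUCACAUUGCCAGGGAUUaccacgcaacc
The shared stretch holds the seed and the first 18 bases of miR-23a-3p, and the next base of the Mir23b hairpin differs (U19A). Mir27a and Mir27b likewise share a stretch of 20 bases. Mir24-1 and Mir24-2 share 28 bases, which include all 22 bases of miR-24-3p. The 5p arms of the miR-24 genes part after 16 bases and are printed because they are the arms by which these genes can be told apart.
miR-24-2-5p: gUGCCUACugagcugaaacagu
miR-24-1-5p: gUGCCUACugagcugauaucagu

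**Figure D1:**
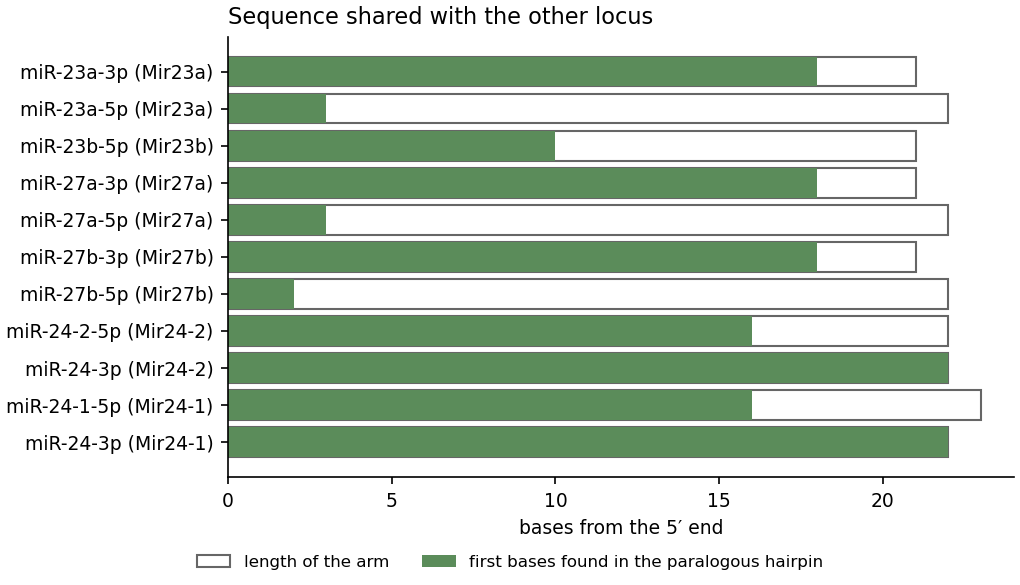
Length of each mature arm (open bars, bases) and the number of its first bases that are also found in the hairpin of the paralogous gene (filled bars). The 3p arms of miR-23a, miR-27a and miR-27b are shared over 18 of 21 bases, and miR-24-3p over all of its 22 bases.

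These sequences bear on the counts because the tables set aside reads that match several genome positions. In replicate 1 they were 29.8% of the sequenced reads, and in replicate 2 28.5%. A read of miR-23a-3p, miR-27a-3p or miR-27b-3p needs at least 19 bases from the 5′ end to differ from the other locus. A read of miR-24-3p cannot differ at any length within the arm. The row of Mir24-2 is therefore no measure of miR-24-3p, and the level of miR-24-3p was not analysed here. Each count also adds both arms of a hairpin.

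Both clusters lie on the plus strand of assembly mm10 in the same order, miR-23, miR-27, miR-24. The Mir23a locus spans 404 bases of chromosome 8, with Mir23a (ENSMUSG00000065611.1) at 84208518 to 84208592, Mir27a (ENSMUSG00000065444.1) at 84208672 to 84208758 and Mir24-2 (ENSMUSG00000065541.1) at 84208815 to 84208921. GENCODE M21 places Mir24-2 in an exon of the long noncoding RNA Gm26532, and Mir23a and Mir27a in no gene other than their own. The nearest protein-coding gene is Zswim4, 1757 bases from Mir24-2 and on the minus strand.

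The Mir23b locus spans 792 bases of chromosome 13, with Mir23b (ENSMUSG00000065599.1) at 63300484 to 63300557, Mir27b (ENSMUSG00000065475.1) at 63300712 to 63300784 and Mir24-1 at 63301208 to 63301275. All 3 lie within 2010111I01Rik (Aopep, an aminopeptidase gene) on the same strand. On the other strand they lie within an intron of 1 transcript of Fancc, a DNA repair gene. Mir23b is intronic in all 9 Aopep transcripts that cover it. Mir27b and Mir24-1 are intronic in the 4 protein-coding transcripts that cover them. Transcripts of other annotated types carry an exon over them, 1 for Mir27b and 4 for Mir24-1.

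**Figure D2:**
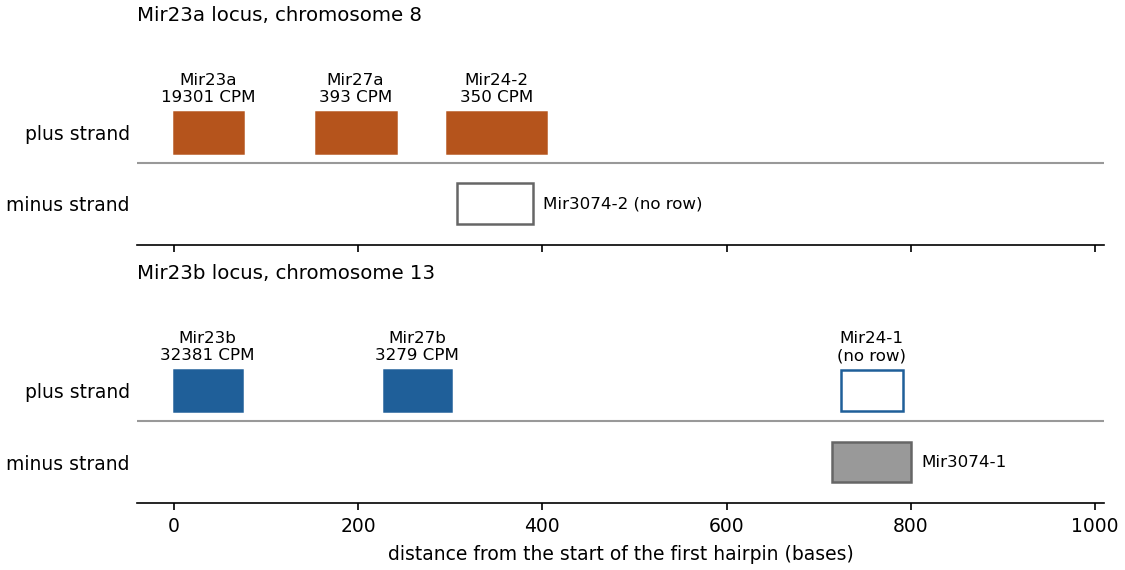
The 2 loci drawn to the same scale, with distance in bases from the start of the first hairpin, plus-strand genes above the line and minus-strand genes below it. Numbers are mean counts per 1000000 (CPM) of the 2 libraries, and open boxes are genes without a row, Mir24-1 and Mir3074-2.

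CPM are counts on the strand of the gene per 1000000, out of the 2719153 such miRNA counts of replicate 1 and the 6602050 of replicate 2. Marker miRNAs of the tissues that make up a face were present. Summed levels in the replicates were 52450 and 67435 CPM for 7 epithelial genes, all detected, 43454 and 41703 CPM for both cartilage genes and 17643 and 12119 CPM for 4 mesenchymal genes, all detected. The endothelial Mir126a stood at 41674 and 54165 CPM. Striated muscle genes (8 of 9 with a row) summed to 12183 and 13731 CPM, and both smooth muscle genes to 18130 and 16278 CPM. The 3 leukocyte genes with a row, of 5 names listed, summed to 633 and 807 CPM and the 4 hepatic genes to 147 and 134 CPM. The erythroid Mir144 and Mir451a summed to 1072 and 1386 CPM. The other erythroid gene was listed as Mir486a and left out of that sum, and a row named Mir486 stood at 21.3 and 19.5 CPM. Of 7 neural genes 6 had a row, summing to 743 and 528 CPM, with Mir9-2 and all 3 Mir124a genes at 0. Mir9-2 has the same mature sequences as its copies in the RefSeq table, so its reads can match several positions and be set aside. The 3 Mir124a genes are likewise named as copies of 1 miRNA, and none of these zeros can be read as a low level. Other lists also hold genes named as copies, such as the mesenchymal Mir199a-1 and Mir199a-2 and the hepatic Mir194-1 and Mir194-2. The striated muscle list holds Mir1a-1 and Mir1a-2, and Mir133a-1 and Mir133a-2. Reads of such copies can be set aside too, so these sums can be too low. Beyond that, in whole tissue, fewer cells of a type and less RNA per cell cannot be told apart.

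The miR-23 genes dominated both loci, and the Mir23b locus was the higher of the 2 in both libraries. Mir23b stood at 29710 CPM in replicate 1 and 35052 CPM in replicate 2, a mean of 32381 ± 3777 CPM (SD, n = 2). This placed it at rank 8 of all miRNA genes in each library. Its share of the counts was 2.97% in replicate 1, with a 95% Wilson interval of 2.95 to 2.99, and it was 3.51% (3.49 to 3.52) in replicate 2. Wilson intervals here cover counting error only. Mir322 next above it and Mir203 next below it in the order of means differed from Mir23b by less than 1 SD of the more variable gene of each comparison.

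Mir23a, the paralogue of Mir23b, stood at 17266 CPM and 21336 CPM, a mean of 19301 ± 2878 CPM. It ranked 17 in replicate 1 and 14 in replicate 2. Its share was 1.73% (1.71 to 1.74) and 2.13% (2.12 to 2.14). The higher library of Mir23a stayed below the lower library of Mir23b, so the ranges of the 2 miR-23 genes did not overlap.

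The miR-27 genes were much lower than their miR-23 neighbours. Mir27b stood at 3557 CPM in replicate 1 and 3000 CPM in replicate 2 (9673 and 19804 counts), a mean of 3279 ± 394 CPM, at ranks 58 and 59. Mir27a stood at 419 CPM (95% Wilson interval 396 to 444) and 368 CPM (353 to 383), from 1140 and 2427 counts, a mean of 393 ± 36.5 CPM. Both miR-27 genes were thus lower in replicate 2 on this scale, the opposite of both miR-23 genes.

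Mir24-2 stood at 318 CPM (298 to 340) and 382 CPM (368 to 398), from 866 and 2524 counts, a mean of 350 ± 45.1 CPM. It lay below Mir27a in replicate 1 and above it in replicate 2. Mir27a and Mir24-2 therefore have no fixed order. For Mir27a, Mir24-2 and Mir27b too, the genes next above and next below in the order of all means lay within 1 SD.

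**Figure D3:**
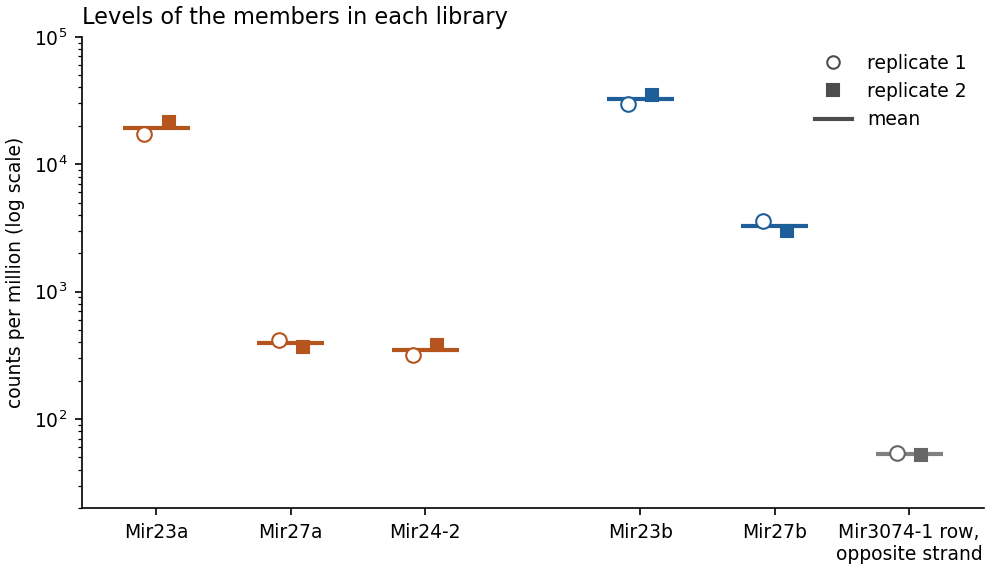
CPM on a log axis for the 5 members with a row and for the opposite-strand reads in the row of Mir3074-1, with open circles for replicate 1, filled squares for replicate 2 and bars for the mean. Levels run from 32381 CPM for Mir23b to 350 CPM for Mir24-2, and the replicates of different members do not overlap, except those of Mir27a and Mir24-2.

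Together the 5 genes made up 5.13% and 6.01% of all gene-strand miRNA counts. The Mir23a locus summed to 18004 and 22086 CPM (20045 ± 2886) and the Mir23b locus to 33268 and 38051 CPM (35659 ± 3382). Of the reads of both loci, the Mir23b locus took 64.9% in replicate 1 (Wilson bounds 64.6 and 65.1). In replicate 2 it took 63.3% (63.1 and 63.4), giving a mean of 64.1% ± 1.14. It was 1.85-fold and 1.72-fold the Mir23a locus. The Mir23a locus is a sum over 3 rows and the Mir23b locus over 2. With 2 libraries the smallest exact p of a sign-flip permutation test is 0.5, so the difference between the loci was not tested over samples.

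The lead of the Mir23b locus was uneven between families. Mir23b was 1.72-fold and 1.64-fold Mir23a, a mean log2 ratio of 0.75 ± 0.047 (SD, n = 2). Mir27b was 8.49-fold and 8.16-fold Mir27a, a mean log2 ratio of 3.06 ± 0.040. Such ratios are taken within a library and do not depend on its scaling. The gap between 0.75 and 3.06 is many times the spread of either ratio between the replicates.

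The step from miR-23 to miR-27 differed accordingly between the loci. Mir23a was 41.2-fold Mir27a in replicate 1 and 58.0-fold in replicate 2. Mir23b was 8.35-fold and 11.7-fold Mir27b. Mir23a was 95.9% and 96.6% of its locus, and Mir23b was 89.3% and 92.1% of its own, in which Mir24-1 is not counted. Levels of different miRNAs carry the unequal efficiency of adapter ligation, and its part in these folds was not tested.

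**Figure D4:**
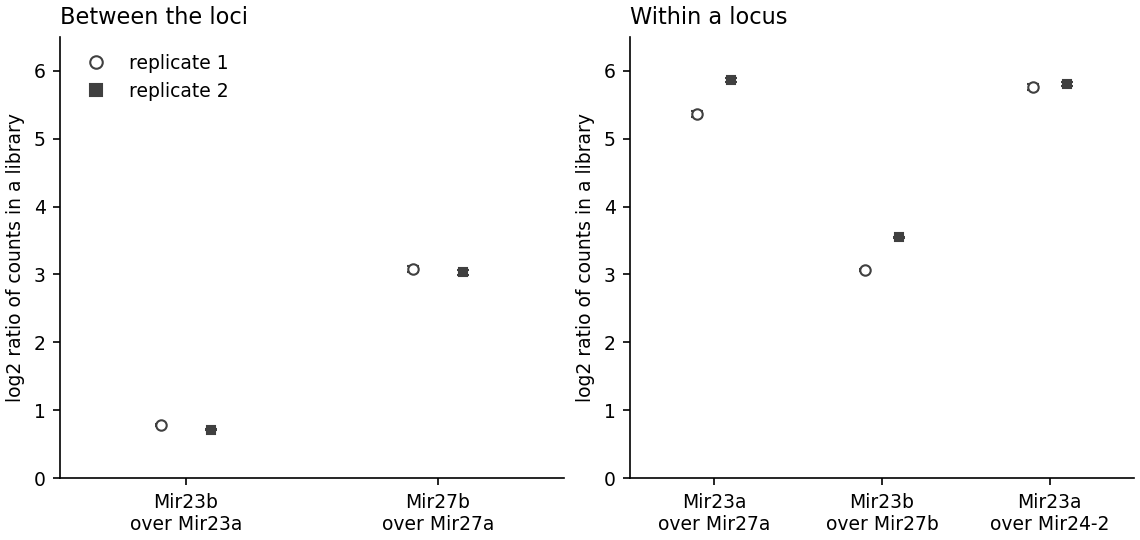
Log2 ratios of counts within a library, between the loci (left) and within a locus (right), with open circles for replicate 1, filled squares for replicate 2 and error bars of 1 counting SE, mostly smaller than the symbols. Both miR-23 to miR-27 ratios lie higher in replicate 2, by 0.49 at the Mir23a locus and 0.48 at the Mir23b locus, while the ratios between the loci move by under 0.1.

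For the miR-23 and miR-27 genes the libraries differed more by family than by locus. The log2 ratio of Mir23a to Mir27a was 5.36 in replicate 1 and 5.86 in replicate 2, higher by 0.49 with a counting SE of 0.052. The log2 ratio of Mir23b to Mir27b was 3.06 and 3.55, higher by 0.48 with a counting SE of 0.019. The 2 loci gave the same shift within counting error. The paralogous hairpins share a stretch of sequence in each family, and the part of sequence in the shift was not tested. By contrast, the ratio of Mir23a to Mir24-2 moved by 0.042 (counting SE 0.057) and that of Mir27b to Mir27a by -0.056 (0.055), both within about 1 counting SE. The ratio of Mir23b to Mir23a moved by -0.067 (0.0097), a small shift beyond counting error.

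All 5 genes passed the filter of a mean of at least 10 counts, as did 372 genes in all. An exact binomial test of the reads of the 2 libraries, adjusted over all tested genes by the Benjamini-Hochberg method, compares these libraries and not conditions. It used TMM scaling, which sets the typical gene near 0 and here raised the median log2 ratio by 0.13 over total counts. The test called 52.2% of all tested genes, 27.4% as higher and 24.7% as lower in replicate 2. Of the 5 genes 4 were called, 3 as higher and 1 as lower. Their median log2 ratio was 0.36, against -0.017 over all tested genes. With total counts the test called 53.0% of all tested genes, 17.2% as higher and 35.8% as lower, and all 5 members, 3 as higher and 2 as lower. With 5 genes and so common a call, the count does not set them apart.

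Mir23a was higher in replicate 2 by a log2 ratio of 0.43 (counting SE 0.0077) and Mir23b by 0.36 (0.0059). The adjusted p of both rounds to 0 in the exact binomial test. Mir24-2 was higher by 0.39 (counting SE 0.057, exact binomial test, adjusted p = 1.14e-11). Mir27b was lower, with a log2 ratio of -0.12 (counting SE 0.018, exact binomial test, adjusted p = 7.08e-11). Mir27a had a log2 ratio of -0.064 (counting SE 0.052) and did not pass the exact binomial test (adjusted p = 0.317). With total counts in place of TMM its log2 ratio was -0.19, which passed (adjusted p = 0.000755, exact binomial test). Genes of several marker lists also differed between the libraries on this log2 scale. The epithelial Mir203 was higher in replicate 2 by 0.88, the erythroid Mir451a and the leukocyte Mir223 by 0.51 each and the endothelial Mir126a by 0.50. The mesenchymal Mir214 had a log2 ratio of -0.42, and the cartilage Mir140 one of 0.074. Each of these is the highest gene of its list, and other genes of a list could go the other way. The epithelial Mir205 and Mir200a had -0.088 and -0.071, while Mir200b, Mir429, Mir141 and Mir200c lay between 0.12 and 0.31. The cartilage Mir455 had -0.055, and the mesenchymal Mir199a-1, Mir199a-2 and Mir199b had 0.21, -0.11 and -0.50. The part of these cell types in the differences of the miR-23, miR-27 and miR-24 genes was not tested. Replicate 2 also had 2.4 times as many counts as replicate 1, and the part of depth was not tested.

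**Figure D5:**
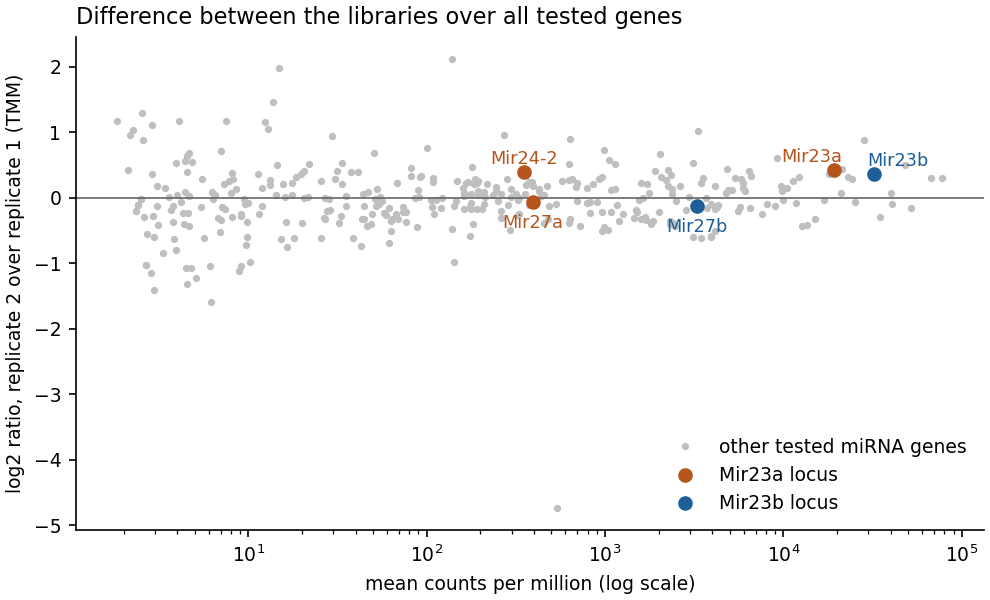
Log2 ratio of replicate 2 over replicate 1 with TMM scaling against mean CPM (log axis) for the 372 tested miRNA genes. Mir23a, Mir23b and Mir24-2 lie between 0.36 and 0.43, and Mir27a and Mir27b lie just below 0, inside the range of genes of like level.

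Reads on the plus strand at Mir24-1 can be followed in part through a gene on the other strand. Mir3074-1 overlaps all 68 bases of Mir24-1 on the minus strand and has a row, with 77 and 228 counts on its own strand (28.3 and 34.5 CPM). Its opposite-strand column, which is the strand of Mir24-1, held 147 and 344 counts, 65.6% and 60.1% of the row. On the gene-strand total these are 54.1 and 52.1 CPM equivalent, a mean of 53.1 ± 1.38. Mir24-2 was 5.89-fold and 7.34-fold this value, a mean log2 ratio of 2.72 ± 0.22. That log2 ratio was higher in replicate 2 by 0.32, with a counting SE of 0.15. By the Mir24-2 and opposite-strand values the Mir23a locus was the higher, whereas for miR-23 and miR-27 it was the lower. Whether the order holds for all reads of the miR-24 genes cannot be told from them. Reads within the shared 28 bases match both loci and enter neither value, and the opposite-strand value belongs to a row that is not that of Mir24-1. Mir24-2 itself had 3 and 0 opposite-strand counts, and the other 4 members had none in either library. Mir3074-2, which overlaps Mir24-2, has no row.

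Few other mouse miRNAs of the RefSeq table share the seeds of these genes. In that table, the seeds of miR-23a-3p, miR-27a-3p and miR-27b-3p were found in no mature miRNA outside the 2 clusters. The table holds no mature entry for miR-23b-3p, so absence from it does not show that no other miRNA has a seed. The miR-24-3p seed was also found in miR-5124b, miR-6369, miR-6410 and miR-6413. Of these, miR-6369 is printed because its likeness to miR-24-3p runs past the seed.
miR-6369: uGGCUCAGuucaguguuggugag
Mir5124b, Mir6369, Mir6410 and Mir6413 each had 0 counts in both libraries, which allows up to 1.10 CPM in replicate 1 and 0.454 CPM in replicate 2. No other gene of the table with these seeds had a count. Whether reads of Mir5124b, Mir6369, Mir6410 and Mir6413 match several positions was not examined, so these bounds hold for uniquely placed reads only.

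Other paralogous miRNA clusters also had 1 locus above the other, by folds that were not tested against that of the Mir23b locus. The Mir23b locus was 1.79 ± 0.088 times the Mir23a locus (SD, n = 2). The growth-associated miR-17~92 cluster, a sum over 6 rows, was 2.49 ± 0.087 times miR-106b~25, a sum over 3. Mir19b-1 and Mir92-1 of miR-17~92 have genes named as their copies, Mir19b-2 and Mir92-2, so part of their reads can be set aside. The epithelial Mir200a, Mir200b and Mir429 cluster was 2.91 ± 0.18 times Mir200c and Mir141. In the miR-181 family, Mir181c and Mir181d together were 4.12 ± 0.67 times Mir181a-1 and Mir181b-1 and 6.55 ± 0.83 times Mir181a-2 and Mir181b-2. miR-181a-5p is identical in both of its genes, as is miR-181b-5p, so reads of these arms match several positions as those of miR-24-3p do, and the miR-181 folds are no measure of the mature miRNAs. These 4 folds lay above that of the Mir23b locus in both libraries. Mir181a-1 and Mir181b-1 over Mir181a-2 and Mir181b-2 gave 1.30-fold in replicate 1 and 1.96-fold in replicate 2, on either side of it.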

How the data were processed

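Small RNA libraries of 2 replicates of 1 group were used. The authors deposited raw read counts per miRNA gene, with 3 count columns and 4 summary rows a library, on assembly mm10 with GENCODE M4, per the metadata text beside the counts. The aligner and trimming: not given in the sources used here. The columns are laid out as STAR writes gene counts, and in all 1973 gene rows the strand columns (3 and 4) sum to column 2. The gene-strand column 3 was used, and summary rows were left out. Of 5617037 and 13380839 reads, 48.4% and 49.3% were gene-strand miRNA counts. Symbols and positions came from GENCODE M21 (1894 of 1973 identifiers matched, without version), and sequences from RefSeq on GRCm38.p6, with a hairpin for all 6 genes. The RefSeq sequences have no mature entry for miR-23b-3p, which is named only.

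CPM, Wilson intervals, log2 ratios and exact two-sided binomial tests (mean of at least 10 counts, threshold 0.05) were computed with scipy 1.17.1. TMM factors over the tested genes were computed with edgeR 4.0.16. Log2 ratios between the libraries used a prior of 0.5 counts, and those within a library used none. A counting SE is the SE of a log2 ratio of 2 counts under counting error alone. The test was checked on simulated counts with counting error only, so the check does not cover variation between replicates. No length scaling was applied, since a read stands for 1 mature miRNA. Members and lists were chosen with earlier results of these data known. Named genes are the members, genes overlapping them, their neighbours by level, genes sharing a seed and the highest marker of each list. Other markers and cluster genes are named where a list or cluster is described. Among genes of at least 100 CPM, the 2 nearest in log2 ratio to Mir23b and to Mir23a are also named. Alternatives were column 2, total counts or DESeq2 1.42.0 size factors for TMM, the total without the highest gene, other count filters, a prior of 5, added opposite-strand reads, pooled counts and leaving out each replicate. TMM over all gene rows was added after the data were seen.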

Additional observations from a re-analysis of the deposited data

Results flagged for a closer look

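Reads on the strand of Mir24-1 appeared in a column outside the main measurement. The row of Mir3074-1 held 147 and 344 opposite-strand counts, or 53.1 CPM equivalent on average, above the 3 counts that a count of 0 allows. In all, 19 genes had over 3 opposite-strand counts in each library.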

How the results depend on the processing

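Every level, locus sum, locus share and ratio between loci moved by less than 1 SD between replicates under each alternative that was run for it. For leaving out 1 of 2 libraries this holds by construction and says nothing about stability. Across the alternatives the number of genes called stayed between 182 and 204 against 194. The split of calls depended on scaling: 102 genes were higher and 92 lower in replicate 2 with TMM, 64 and 133 with total counts, 113 and 78 with DESeq2 size factors. The sign of the log2 ratio of Mir23a, Mir23b, Mir24-2, Mir27a and Mir27b between the libraries was the same under all 7 alternatives. The only call that changed was that of Mir27a, with total counts. The size of the miR-27 ratios depended on scaling. Mir27b had -0.063 with DESeq2 size factors and -0.25 with total counts. Mir27a had -0.0069 and -0.19, and with a counting SE of 0.052 its direction is not settled. The log2 ratio of Mir23b to Mir23a was 0.72 without replicate 1 and 0.78 without replicate 2, and that of Mir27b to Mir27a 3.03 and 3.08. No paired analysis was possible because there is only 1 group. The value for the strand of Mir24-1 rests on 147 and 344 counts, and with 2 libraries an exact sign-flip permutation test cannot go below p = 0.5.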

Other observations

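The genes of at least 100 CPM nearest to Mir23b in the log2 ratio between the libraries were Mir99b (0.37, at 18003 ± 2155 CPM) and Mir16-1 (0.36, at 2342 ± 265 CPM). Those nearest to Mir23a were Mir149 (0.43, at 4827 ± 728 CPM) and Mir423 (0.42, at 2252 ± 326 CPM). Likeness here is the absolute difference in that ratio over 2 libraries, at most 0.0091 for these 4 genes.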
